A study of Homo sapiens with 6 samples.

Results

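The miR-29 family was examined in small RNA sequencing of MDA-MB-231 cells exposed to Withaferin A. All rows of the deposited table whose names start with hsa-miR-29a-, hsa-miR-29b- or hsa-miR-29c- were taken, which gave 6 of the 413 miRNAs: hsa-miR-29a-3p, hsa-miR-29a-5p, hsa-miR-29b-1-5p, hsa-miR-29b-2-5p, hsa-miR-29b-3p and hsa-miR-29c-3p. The rule used names only and no measured value. MDA-MB-231 is an established human triple-negative breast cancer line of basal, mesenchymal-like character. The vehicle group (n = 3 libraries) was kept for 24 h without Withaferin A. Its labels call it untreated and the methods describe DMSO alone. The treated group (n = 3 libraries) received 2 µM Withaferin A (WA), a steroidal lactone of the plant Withania somnifera, for 24 h. Both groups came from this single line. The paper describes the replicates as independent, while the labels number them without saying whether they were separate cultures, and the p-values measure the spread between these libraries. The study sequenced these libraries to ask how WA alters the miRNA profile of the cells.

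A microRNA is cut from a hairpin precursor, and the guide strand of the duplex is loaded into Argonaute, where its seed (bases 2 to 8) pairs with sites in messenger RNAs and lowers their output. The other strand, the passenger, is mostly degraded. In the miR-29 family the 3p strands are the guides, and they are known for repressing collagens, elastin, fibrillin and other extracellular matrix genes as well as the DNA methyltransferases DNMT3A and DNMT3B, MCL1 and CDK6. In breast cancer the family has been studied for its action on matrix, invasion and DNA methylation.

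The sequences of the guides are shown first because the family's shared action rests on their seed. They were taken from RefSeq (GRCh38.p14), which held a mature sequence for 6 of the 6 rows. All are written 5′ to 3′ with the seed in capitals.
hsa-miR-29a-3p: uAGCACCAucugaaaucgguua
hsa-miR-29b-3p: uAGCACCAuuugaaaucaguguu
hsa-miR-29c-3p: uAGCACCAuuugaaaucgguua
The passenger strands are shown because each of the measured ones comes from a single hairpin and carries another seed.
hsa-miR-29a-5p: aCUGAUUUcuuuugguguucag
hsa-miR-29b-1-5p: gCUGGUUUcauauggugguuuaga
hsa-miR-29b-2-5p: cUGGUUUCacaugguggcuuag
The 3 guides share the seed AGCACCA, which no other of the 2370 mature sequences in the RefSeq table carries. The seed of each 5p row was found in 1 mature sequence only. Counted from 1 at the 5′ end, hsa-miR-29a-3p differs from hsa-miR-29c-3p only by C10U. Against hsa-miR-29b-3p, hsa-miR-29a-3p differs by C10U, G18A, U21G and A22U, and hsa-miR-29b-3p is 1 base longer. How the authors assigned reads that fit more than 1 similar miRNA is not given in the sources used here, so the split between hsa-miR-29a-3p and the far less abundant hsa-miR-29c-3p is uncertain to the extent that reads with an error at that base were shared.

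The family is encoded by 4 hairpins in 2 clusters, all on the minus strand. hsa-miR-29a-3p lies at chr7:130876748-130876769 in MIR29A, and hsa-miR-29b-1-5p at chr7:130877507-130877530 in MIR29B1, with 648 bases between the hairpins. Both hairpins overlap the long noncoding RNA gene LINC-PINT on the same strand, being intronic in all but 1 of the 12 LINC-PINT transcripts that overlap them in GENCODE release 44. hsa-miR-29c-3p lies at chr1:207801865-207801886 in MIR29C, and hsa-miR-29b-2-5p at chr1:207802492-207802513 in MIR29B2, with 503 bases between the hairpins. Both overlap their noncoding host gene MIR29B2CHG, with an exon of 1 of its 5 overlapping transcripts. The mature hsa-miR-29b-3p is identical from MIR29B1 at chr7:130877467-130877489 and MIR29B2 at chr1:207802450-207802472, so its row cannot be split by locus, whereas hsa-miR-29b-1-5p and hsa-miR-29b-2-5p each report on a single locus.

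Short sites in 3′ untranslated regions were read from the same genome to show what the seed pairs with. Canonical transcripts of 11 known targets were searched on the transcript strand for TGGTGCT, the reverse complement of the seed (7mer), and for TGGTGCTA, which adds an A opposite base 1 (8mer). Every 8mer contains a 7mer. An 8mer was present in 8 of the 11 genes, against 3.18% of 19550 3′ untranslated regions of all lengths, and 14.0% of these held at least a 7mer. The remaining 3 of the 11 genes, SPARC, DNMT3A and CDK6, held 7mers only. The genes were picked as known targets, so these shares describe the sites and test nothing. Examples from fibrillar collagens, elastin and a methyltransferase are given with the site in capitals.
COL1A1, minus strand, chr17:50184561-50184590: gagggaatcacTGGTGCTAtagaaattgag
COL3A1, plus strand, chr2:189012005-189012034: aaatgtctcaaTGGTGCTAtaataaataaa
ELN, plus strand, chr7:74068727-74068756: ctcatcaacgtTGGTGCTActgcttggtgg
DNMT3B, plus strand, chr20:32809094-32809123: actcttcttacTGGTGCTAttttgtagaat
None of these messenger RNAs was measured in the libraries, and a match to the letters does not show that a site is used.

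Each deposited value is the number of reads of a miRNA divided by a size factor of its library and is called the normalized value. Within each library all values were whole multiples of 1 step, and the steps are given as reads. Summed over the 413 miRNAs, the libraries held 156442 to 4778066 reads. The smallest and the next smallest were WA replicates 1 and 2. The paper describes these 413 as expressed in both groups. Totals of a library, shares of a library and ranks within a library refer to them alone. The libraries did not group by treatment alone. Across the 413 miRNAs, Pearson's r of the log2 values was 0.964 between WA replicates 1 and 2, but 0.630 and 0.641 between each of them and WA replicate 3, which was closer to the vehicle libraries (0.772, 0.797 and 0.774). Vehicle replicates 2 and 3 correlated at 0.987, and vehicle replicate 1 with them at 0.785 and 0.792. Of the marker lists for the cell line and for other cells, the basal-like list had 4 of 4 miRNAs in the vehicle libraries. It summed to 145204 to 183164 in vehicle and to 55775, 59251 and 284403 in WA replicates 1, 2 and 3. Its member hsa-miR-10b-5p was low, at 10.9 to 15.3 in vehicle, and was listed at 0 in all 3 WA libraries. A 0 allows up to 3 reads, a normalized value of up to 17.4, 5.36 and 2.25 in WA replicates 1, 2 and 3. The stromal list (4 of its 6 miRNAs in the table) summed to 16.3 to 62.5 in the vehicle libraries, and to 6255, 8053 and 133 in WA replicates 1, 2 and 3, with none of the 4 at 0 in any WA library. The miR-200 epithelial list (4 of 6 in the table) summed to 192 to 1820 in vehicle, was at 0 for 4 of 4 in WA replicates 1 and 2, and reached 1240 in WA replicate 3. Of the blood cell list only hsa-miR-486-5p was in the table, at 492 to 911 in vehicle and at 0, 5.36 and 1223 in WA, and of the muscle and liver list only 1 miRNA was, at no more than 14.3 in any library. The part of these differences between libraries in the miR-29 values was not tested, and results are therefore also given without single libraries.

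hsa-miR-29a-3p made up nearly the whole family. It was the guide with by far the most reads, and it had 24450, 13827 and 10862 normalized reads in vehicle replicates 1, 2 and 3 and 18476, 19643 and 92220 in WA replicates 1, 2 and 3. WA replicate 3 stood 3.77 times above the highest vehicle library, while WA replicates 1 and 2 lay inside the vehicle range, so the groups overlapped. Ordered by level among the 413 miRNAs of its library, hsa-miR-29a-3p was number 12, 20 and 23 in vehicle and number 13, 12 and 4 in WA. The group means were 16380 ± 7145 (SD, n = 3) in vehicle and 43446 ± 42243 (SD, n = 3) in WA. On the log2(normalized value + 1) scale the difference, WA minus vehicle, was 1.06 with a standard error of 0.87 (limma, adjusted p = 0.445). Without WA replicate 3 it was 0.30.

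hsa-miR-29b-3p, the guide made from both clusters, had 114, 1051 and 836 normalized reads in vehicle and 609, 448 and 2164 in WA. The lowest library was vehicle replicate 1 and the highest WA replicate 3, and WA replicates 1 and 2 fell between the vehicle values. Vehicle replicate 1 rested on 84 reads, against 3679 and 2736 in vehicle replicates 2 and 3. The vehicle libraries alone spanned 9.24 times. The log2 difference was 0.85 ± 1.08 (SE; limma, adjusted p = 0.617), and it was -0.16 without vehicle replicate 1, which turned its direction, and 0.17 without WA replicate 3.

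hsa-miR-29c-3p, which differs from hsa-miR-29a-3p at a single base and is cut from the chromosome 1 cluster, was the rarest guide. Its normalized values were 88.0, 48.0 and 25.1 in vehicle and 17.4, 44.7 and 1413 in WA. WA replicate 3 lay 16.1 times above the highest vehicle library, WA replicate 2 lay inside the vehicle range, and WA replicate 1 lay below it on 3 reads. The log2 difference was 1.13 ± 1.75 (SE; limma, adjusted p = 0.664). Without WA replicate 3 it turned to -0.74, so the sign of the difference rested on 1 library. The deposited table used here has no row for the passenger hsa-miR-29c-5p, and its level was not analysed here.

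hsa-miR-29b-1-5p, the passenger of the chromosome 7 miR-29b hairpin, gave the largest difference of the family. It had 223, 10.6 and 11.9 normalized reads in vehicle and 272, 313 and 214 in WA. Vehicle replicates 2 and 3 lay more than 10 times below all other libraries, but vehicle replicate 1 exceeded WA replicate 3, and the groups overlapped by that margin. In reads these were 165, 37 and 39 against 47, 175 and 285. Unlike the other rows, its WA libraries lay close together (highest over lowest 1.46), and the spread was in the vehicle group (21.1). The log2 difference was 3.03 ± 1.39 (SE), with a 95% interval from -0.21 to 6.28 and an adjusted p of 0.215 (limma). Leaving out vehicle replicate 1 brought it to 4.43 with an adjusted p of 0.0437 (limma), the only setting tried in which a miR-29 row passed the threshold. In that setting 21 of the 327 tested miRNAs passed, 6 of them higher in WA.

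hsa-miR-29a-5p, the passenger of MIR29A, had 42.0, 8.57 and 11.6 normalized reads in vehicle and 58.0, 17.9 and 299.8 in WA. WA replicates 1 and 3 were above every vehicle library and WA replicate 2 was inside the vehicle range. WA replicates 1 and 2 rested on 10 reads each. Its log2 difference was 2.00 ± 1.45 (SE; limma, adjusted p = 0.402), and 0.95 without WA replicate 3.

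hsa-miR-29b-2-5p, the passenger of the chromosome 1 miR-29b hairpin, had 9.48, 8.28 and 17.1 normalized reads in vehicle and 0, 5.36 and 40.6 in WA. Only 2 libraries reached a normalized value of 10, so it was not among the miRNAs tested. The 0 in WA replicate 1 allowed up to 3 reads, which in that library is a normalized value of up to 17.4, as high as the highest vehicle library, and 5.36 in WA replicate 2 stood for 3 reads. WA replicate 3, on 54 reads, was 2.37 times the highest vehicle library. Intervals and limits from read numbers cover counting error only.

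**Figure D1:**
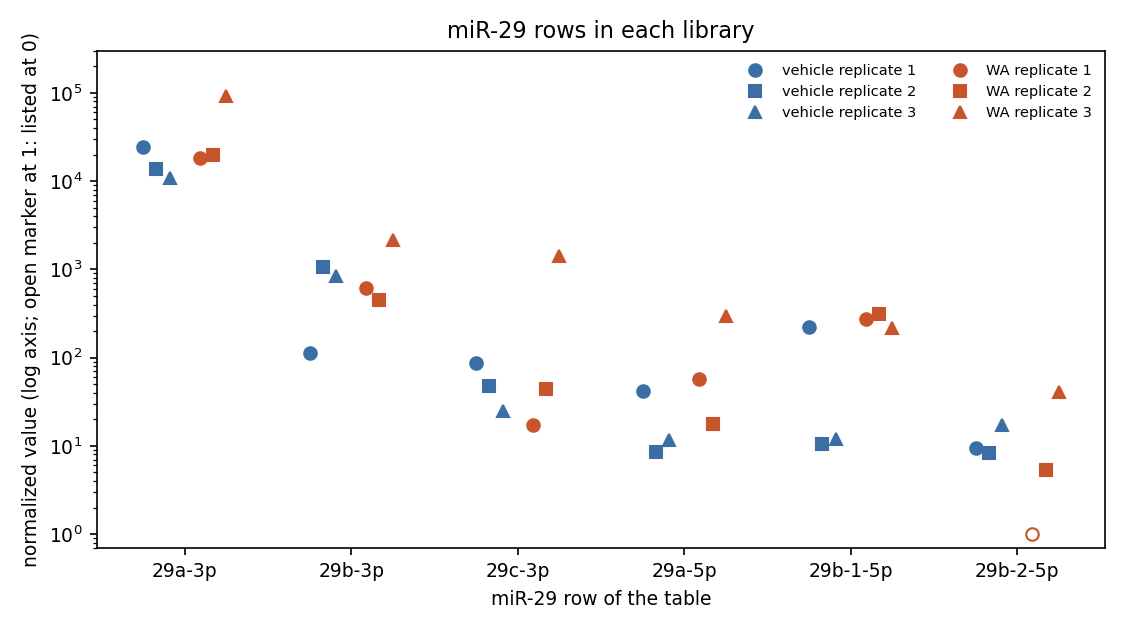
Normalized value (log axis) of the 6 miR-29 rows in each of the 6 libraries, blue for vehicle and orange for WA, with circles, squares and triangles for replicates 1, 2 and 3. WA replicate 3 is the highest point of every row except 29b-1-5p, and the open circle marks 29b-2-5p, listed at 0 in WA replicate 1.

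The highest value of a row lay in WA replicate 3 for 5 of the 6 rows and in WA replicate 2 for hsa-miR-29b-1-5p. Among all 327 tested miRNAs, 26.3% had their highest value in WA replicate 3, 22.9% in vehicle replicate 1 and 12.5% in WA replicate 2. In WA replicate 3 the 6 rows made up 5.74% of the reads of the 413 miRNAs (Wilson 95% interval 5.71 to 5.77%). This share was 2.14% and 2.03% in WA replicates 1 and 2. In the vehicle libraries the share ran from 0.917% in replicate 3 to 2.59% in replicate 1, so that WA replicates 1 and 2 also lay inside the vehicle range by this measure.

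The comparison of WA with vehicle was fitted over the 327 miRNAs that reached a normalized value of 10 in 3 or more libraries, among them 5 of the 6 miR-29 rows. At an adjusted p under 0.05 the fit called 18 miRNAs, or 5.5% of those tested, of which 1 (0.306%) was higher in WA. Of the 5 miR-29 rows 0 passed in limma, and 0 had an unadjusted p under 0.05, which 26.3% of the tested miRNAs had. Among the alternatives that kept more than a single WA library, hsa-miR-29b-1-5p came under this unadjusted level with TMM scaling (limma, unadjusted p = 0.0496, adjusted p = 0.190). It also did so over the miRNAs that reached 10 in every library (limma, unadjusted p = 0.0319, adjusted p = 0.230). Without vehicle replicate 1 it did so as well (limma, unadjusted p = 0.00231, adjusted p = 0.0437). The groups overlapped in each of the 5, whereas 27.2% of the tested miRNAs had groups apart from each other. All 5 differences were positive and ran from 0.85 to 3.03, with a median of 1.13. Over all tested miRNAs the median difference was -0.91, with 129 positive and 198 negative values. That median changed with the filter, and 142 of the 413 miRNAs were listed at 0 in both WA replicates 1 and 2. It was -0.10 over the 173 miRNAs that reached 10 in every library, 4 of the miR-29 rows among them, and -1.31 over all 413. Ordered from the most positive difference, hsa-miR-29b-1-5p was number 21 of 327, hsa-miR-29a-5p 42, hsa-miR-29c-3p 70, hsa-miR-29a-3p 73 and hsa-miR-29b-3p 82. These positions are a description, since the 95% interval of each of the 5 differences included 0.

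**Figure D2:**
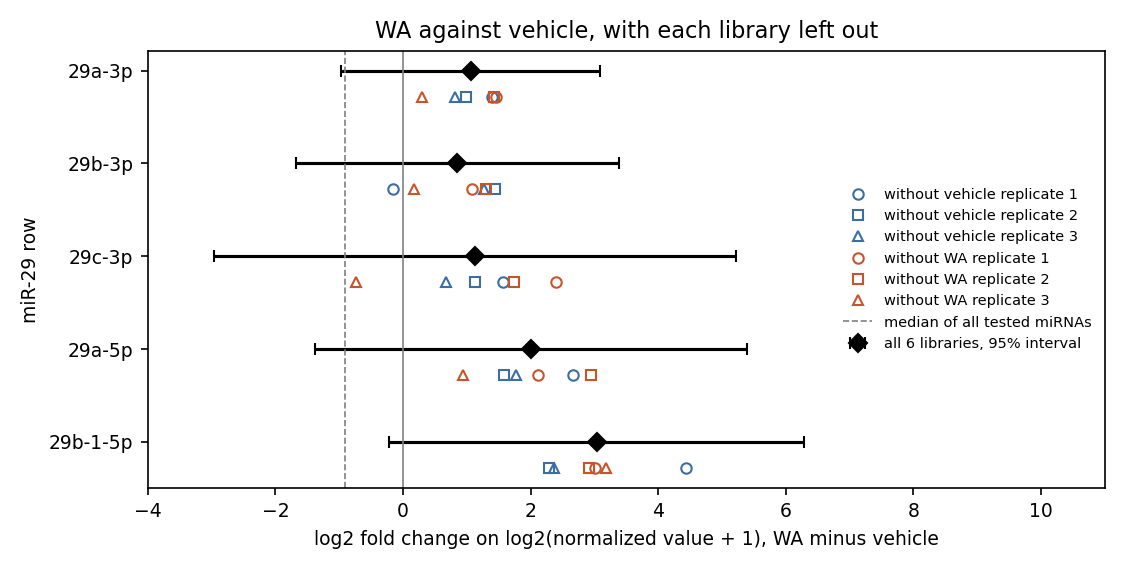
Log2 fold change (WA minus vehicle, on log2(normalized value + 1)) of the 5 tested miR-29 rows, with black diamonds and 95% intervals for the fit of all 6 libraries and open symbols below them for the fits that leave out 1 library. All 5 intervals cross 0, the dashed line marks the median of all tested miRNAs (-0.91), and the 29c-3p and 29b-3p rows cross 0 without WA replicate 3 and without vehicle replicate 1, respectively.

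The size of the differences was compared with and without WA replicate 3. With WA replicates 1 and 2 both left out, the log2 differences, which then compare the single WA replicate 3 with 3 vehicle libraries and assume that it varies as the vehicle libraries do, were 2.58 for hsa-miR-29a-3p, 2.22 for hsa-miR-29b-3p, 4.87 for hsa-miR-29c-3p, 4.12 for hsa-miR-29a-5p and 2.74 for hsa-miR-29b-1-5p. These differences are given as sizes only, because a single WA library has no spread of its own. Without WA replicate 3 the same rows, in the same order, had 0.30, 0.17, -0.74, 0.95 and 3.18, so that hsa-miR-29b-1-5p alone was not lower without that library. Levels of other miRNAs differed between the same libraries. hsa-miR-21-5p, the most studied pro-fibrotic miRNA, had 134806, 403216 and 347168 normalized reads in vehicle replicates 1, 2 and 3. It had 277045 and 290979 in WA replicates 1 and 2, inside the vehicle range, and 27029 in WA replicate 3, below that range. hsa-miR-155-5p, known from immune cells and from invasive breast cancer cells, had 26488 and 24844 in WA replicates 1 and 2, 3.01 in WA replicate 3 and at most 2.71 in the vehicle libraries. Their part in the miR-29 values was not tested.

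The balance among the 3 guides can be read within a library, where the size factor cancels. hsa-miR-29a-3p held 99.2%, 92.6% and 92.7% of the reads of the 3 guides in vehicle replicates 1, 2 and 3, and 96.7%, 97.6% and 96.3% in WA replicates 1, 2 and 3. hsa-miR-29b-3p held 0.462%, 7.04% and 7.13% in vehicle and 3.19%, 2.23% and 2.26% in WA. The 3 WA libraries lay within about 1 percentage point of each other and below vehicle replicates 2 and 3, with Wilson 95% intervals apart (highest WA bound 3.84%, lowest bound of those vehicle libraries 6.82%). Vehicle replicate 1, at 0.373 to 0.571%, was lower than all of them, and the groups overlapped.

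hsa-miR-29c-3p held 0.357%, 0.321% and 0.214% of the guide reads in vehicle and 0.0910%, 0.222% and 1.48% in WA. WA replicate 3 was above every other library beyond counting error, with an interval of 1.41 to 1.54%. The interval of WA replicate 1, 0.0310 to 0.267%, reached into that of vehicle replicate 3 (0.172 to 0.265%).

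**Figure D3:**
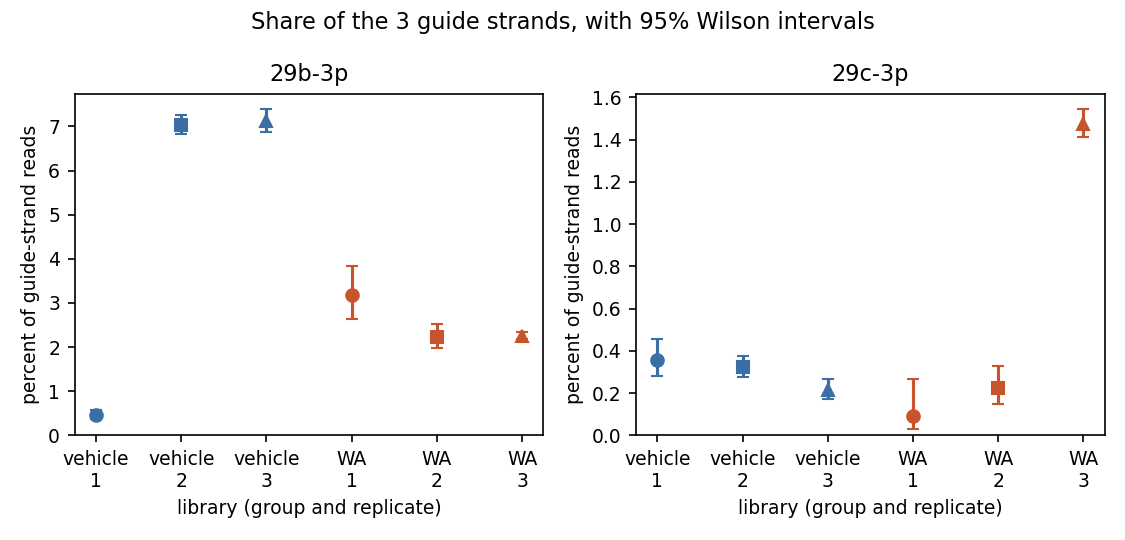
Share of hsa-miR-29b-3p (left) and hsa-miR-29c-3p (right) among the reads of the 3 guide strands in each library, in percent, with Wilson 95% intervals for counting error. The 29b-3p share is 7.04 and 7.13% in vehicle replicates 2 and 3, 2.23 to 3.19% in WA and 0.462% in vehicle replicate 1, and the 29c-3p share stands out in WA replicate 3 at 1.48%.

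Ratios between rows of the same library were compared between the groups for 7 pairs by two-sided exact permutation tests, in which 3 libraries against 3 cannot give a p below 0.1. No pair reached 0.1, and the values adjusted over the 7 pairs ran from 0.467 to 1. The passenger of MIR29B1 relative to the major guide, hsa-miR-29b-1-5p over hsa-miR-29a-3p, had a mean log2 ratio of -8.90 ± 1.87 (SD, n = 3) in vehicle and -6.93 ± 1.57 (SD, n = 3) in WA, a difference of 1.97 (exact permutation p = 0.2). The same passenger over its cluster neighbour hsa-miR-29a-5p differed by 1.03 (exact permutation p = 0.7). Within MIR29A, the passenger over the guide differed by 0.94 (exact permutation p = 0.3). Per 1000 reads of hsa-miR-29a-3p there were 1.72, 0.620 and 1.07 reads of hsa-miR-29a-5p in vehicle and 3.14, 0.910 and 3.25 in WA, with WA replicate 2 inside the vehicle range.

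The passengers of the miR-29b hairpins allow the clusters to be set against each other. hsa-miR-29b-2-5p over hsa-miR-29b-1-5p had log2 ratios near 0 in vehicle replicates 2 and 3 (highest 0.49), -4.42 in vehicle replicate 1, and -8.10 to -2.37 in WA. The mean difference of -3.95 (exact permutation p = 0.2) rested on a row with 0 and 3 reads in WA replicates 1 and 2, and vehicle replicate 1 lay among the WA libraries. Within the chromosome 1 cluster, hsa-miR-29b-2-5p over hsa-miR-29c-3p differed by -2.04 (exact permutation p = 0.2), with overlapping groups, and by -0.055 (exact permutation p = 1) after all libraries were thinned to the smallest. The thinning was a single random draw, and hsa-miR-29b-2-5p had only 7, 29 and 56 reads in vehicle replicates 1, 2 and 3 before it. The value of -0.055 therefore does not settle the size of this difference. The guide ratios differed by -0.21 for hsa-miR-29b-3p and 0.07 for hsa-miR-29c-3p over hsa-miR-29a-3p (exact permutation p = 1 for both). These means rested on single libraries, and the first was -1.55 without vehicle replicate 1 and the second -1.05 without WA replicate 3, each at an exact permutation p of 0.1, the smallest that 3 against 2 allows. In vehicle replicate 1, hsa-miR-29b-1-5p (165 reads) exceeded the guide hsa-miR-29b-3p (84 reads), the reverse of the order in the other 5 libraries.

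**Figure D4:**
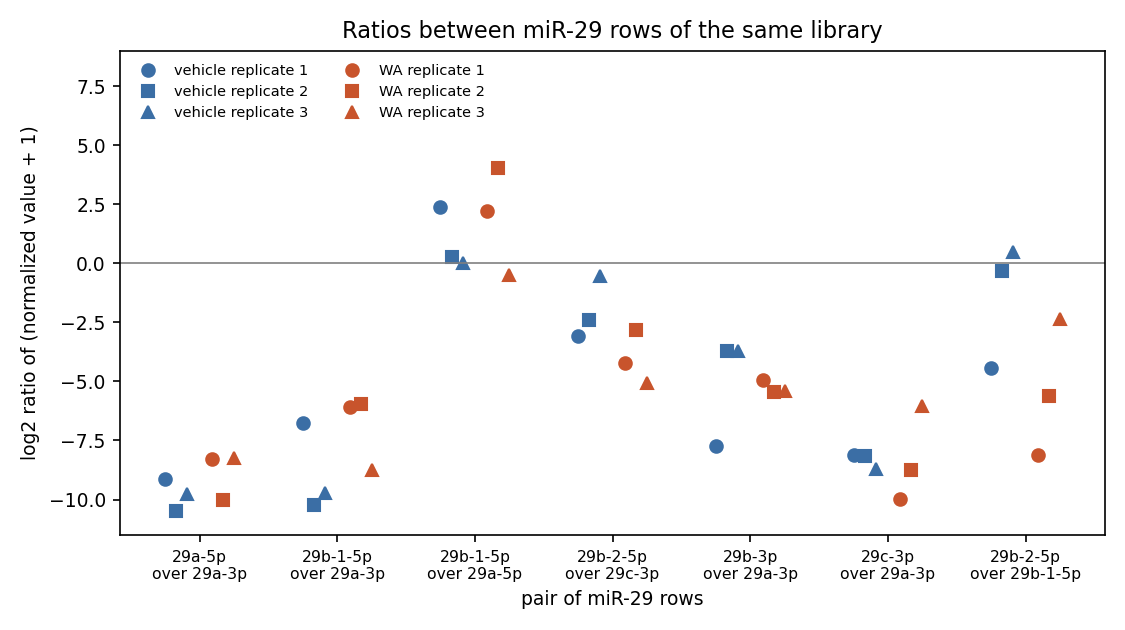
Log2 ratio of the normalized values (each plus 1) of 7 pairs of miR-29 rows, with 1 point per library, blue for vehicle and orange for WA. The groups overlap in all 7 pairs, and vehicle replicate 1 lies away from vehicle replicates 2 and 3 in the ratios that contain 29b-3p or 29b-1-5p.

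The miRNAs whose levels followed those of hsa-miR-29a-3p most closely were found by the root mean square difference of log2 values, each centred on its own mean, over the 6 libraries. The nearest 5 were hsa-miR-93-5p (0.21), hsa-miR-342-3p (0.26), hsa-miR-221-5p (0.28), hsa-let-7a-5p (0.31) and hsa-miR-103a-3p (0.40), against a median of 2.11 over the tested miRNAs. The members of its own family were farther away, each placed among the miRNAs outside the family. hsa-miR-29a-5p rested on 10 reads in WA replicates 1 and 2, and hsa-miR-29c-3p on 3 in WA replicate 1. The part of counting error in these distances was not tested. hsa-miR-29a-5p, from the same hairpin, was number 28 in this order, hsa-miR-29c-3p number 57, hsa-miR-29b-3p number 74 and hsa-miR-29b-1-5p, from the neighbouring hairpin, number 112. For hsa-miR-29c-3p the nearest were hsa-miR-125b-5p (0.79), hsa-let-7e-5p (0.81), hsa-miR-221-3p (1.00), hsa-miR-221-5p (1.05) and hsa-miR-342-3p (1.09), with hsa-miR-29a-3p number 9. The points share their libraries and size factors, and each of the nearest miRNAs named had its highest value in WA replicate 3.

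**Figure D5:**
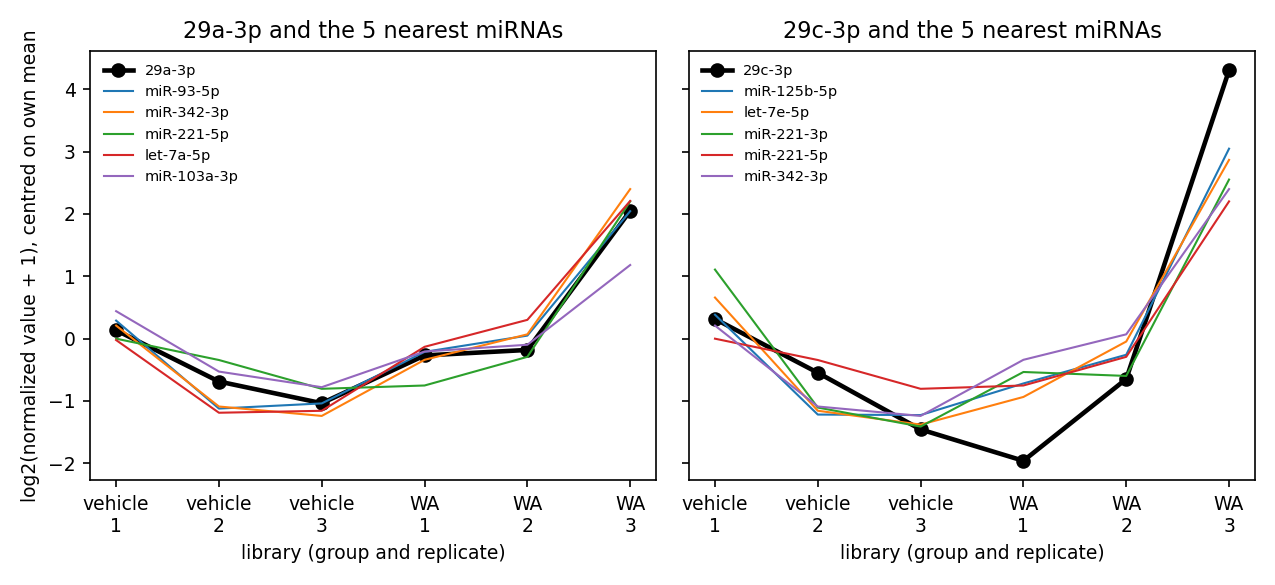
Log2(normalized value + 1), centred on each miRNA's own mean, over the 6 libraries for 29a-3p (left, black) and 29c-3p (right, black), each with the 5 nearest miRNAs in colour. All lines have their highest point in WA replicate 3, where 29c-3p stands above its 5 nearest miRNAs.

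Other miRNAs with known actions on the same processes were described from fixed lists. Of 22 miRNAs known to act on matrix genes, TGF-beta signalling or fibrosis, 18 were in the table and 16 were tested. In limma 0 of them passed the adjusted threshold, against 5.5% of all tested miRNAs. A single one had an unadjusted p under 0.05, against 26.3% of all tested, namely hsa-miR-192-5p, which is linked to TGF-beta signalling in the kidney, at a log2 difference of -2.86 (limma, adjusted p = 0.176). Their median difference was -0.82, with 5 positive and 11 negative values, against -0.91 over all tested miRNAs. All 4 miRNAs of the list known to act on DNA methyltransferases were tested, and 0 passed in limma, with 1 at an unadjusted p under 0.05. This was hsa-miR-152-3p, a member of the miR-148 family that targets DNMT1. It had 98.9, 72.0 and 59.6 normalized reads in vehicle and 1270, 1522 and 385 in WA. Its 3 WA libraries were all above the vehicle libraries, with a log2 difference of 3.57 ± 0.86 (SE; limma, adjusted p = 0.0601). Over all tested miRNAs, 27.2% had groups apart from each other in either direction and 26.3% an unadjusted p under 0.05 (limma). The others had 1.42 for hsa-miR-342-3p, 0.38 for hsa-miR-148b-3p and -1.35 for hsa-miR-148a-3p.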

How the data were processed

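The authors trimmed the reads with Trim Galore, aligned them with Bowtie to GRCh38.p10 and matched them to mature human miRNAs. The deposited values, a signal per miRNA and library, are reads divided by a size factor. The deposited fold ratio, log2 fold change and p-value columns hold the authors' own DESeq2 comparison and were not used.

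Every value was a whole multiple (tolerance 0.01) of 1 step per library, and the inverse step equalled the median-of-ratios size factor recomputed from the steps, so 1 step was read as 1 read. limma 3.58.1 (R 4.3.3) was fitted to log2(normalized value + 1) with the variance trend and no pairing. Its two-sided p-values were adjusted by Benjamini-Hochberg. On simulated data, 90 of 90 miRNAs changed by a log2 of 3 and 7 of 272 unchanged ones were called. All simulated libraries came from a common profile with the same spread, and none stood apart as WA replicate 3 and vehicle replicate 1 did. The simulated counts therefore do not give the power of the fit in these data. Ratios were compared in Python 3.11.15 with scipy 1.17.1. The members and lists were chosen with earlier results of these data known. The text names all miR-29 rows, the 5 nearest miRNAs of 2 guides and members of the fixed lists. hsa-miR-10b-5p, hsa-miR-21-5p, hsa-miR-152-3p, hsa-miR-155-5p and hsa-miR-192-5p were singled out from those lists after their values were seen. Alternatives were other scalings, filters, pseudocounts, variance models, thinning (a single random draw), the replicate block and libraries left out. Sequences came from RefSeq (GRCh38.p14), 3′ untranslated regions from GENCODE release 44.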

Additional observations from a re-analysis of the deposited data

How the results depend on the processing

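The number of miR-29 rows past the threshold was 0 in all alternatives except 1 without vehicle replicate 1 (range 0 to 1 with single libraries left out), where hsa-miR-29b-1-5p reached 4.43. That setting called 21 of 327 miRNAs. The number of all miRNAs called, 18, moved to 7 with 0.1 added in place of 1, 7 with 10 added, 53 with no filter, 2 without WA replicates 1 and 2, an alternative added after seeing the data, and 0 both when every library had to reach 10 (29 at an unadjusted p under 0.05 in limma) and with upper-quartile scaling (78 at an unadjusted p). With single libraries left out it ran from 0 to 147, with 0 without vehicle replicates 2 or 3 or WA replicates 1 or 2 (46 to 52 at an unadjusted p in limma) and 147 without WA replicate 3. The log2 differences then ranged from 0.30 to 1.46 for hsa-miR-29a-3p, 0.95 to 2.94 for hsa-miR-29a-5p, 2.29 to 4.43 for hsa-miR-29b-1-5p, -0.16 to 1.44 for hsa-miR-29b-3p and -0.74 to 2.39 for hsa-miR-29c-3p, the last 2 turning without vehicle replicate 1 and WA replicate 3. The ratio of 29b-1-5p over 29a-5p turned to -0.033 without WA replicate 2 and reached 2.24. That of 29b-3p over 29a-3p turned to 0.45 and 0.46 without vehicle replicates 2 and 3, and was -1.55 without vehicle replicate 1. That of 29c-3p over 29a-3p turned to -0.13 without vehicle replicate 3 and to -1.05 without WA replicate 3 (highest 0.93). The values of -1.55 and -1.05 had the smallest exact permutation p that 3 against 2 allows, 0.1. The other 4 ratios kept their sign but moved in size. 29b-2-5p over 29c-3p was -0.055 after thinning and -3.11 with 0.1 added, and 29b-2-5p over 29b-1-5p was -2.07 and -5.09.

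The median of all tested miRNAs was -0.91, and -0.72, -0.62 and -0.78 with total-count, upper-quartile and TMM scaling, under which the 5 tested miR-29 rows stayed positive. It was -0.10 when every library had to reach 10, -0.15 without WA replicates 1 and 2 and -1.31 with no filter. hsa-miR-29b-2-5p, tested only with no filter or after thinning, had -0.91 and 1.14, the latter from a single random draw of few reads. Deviations from the group means of same-numbered libraries correlated at -0.07, 0.06 and -0.09, and those of differently numbered ones at -0.07 to 0.08. With 3 libraries per group these values cannot settle whether the replicate numbers pair the libraries. With the replicate number as a block 24 miRNAs were called and 0 miR-29 rows (limma, adjusted p from 0.272 to 0.726). The planned count models on recovered reads were not run, because too few values were low enough to fix the step on their own. hsa-miR-29c-3p, hsa-miR-29a-5p and hsa-miR-29b-2-5p had at most 25 reads in WA replicates 1 and 2. After thinning to the smallest library hsa-miR-29c-3p was at 1.19 and hsa-miR-29a-5p at 1.71. The cause of the differences between settings was not tested.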
